A study of Caenorhabditis elegans with 6 samples.

Results

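The 10 genes described here encode the core autophagy and mitophagy machinery of Caenorhabditis elegans and were picked by name from the 46589 gene identifiers of the deposited tables. They are unc-51, bec-1, atg-18, atg-7, lgg-1, lgg-2, sqst-1, pink-1, dct-1 and hlh-30, and all 10 had a row in every table. RNA came from the whole bodies of wild-type hermaphrodites, a free-living nematode, raised at 20 °C. The control group (3 libraries) was collected as young adults 36 h after the last larval stage (L4), and the tryptophan group (3 libraries) had been given 5 mM tryptophan, an essential amino acid, over the same 36 h. The question is whether the transcripts of these genes differ in abundance when tryptophan is fed. How many animals went into a library, and whether libraries came from separate cultures, is not given in the sources used here, and p-values therefore cover no more than library-to-library spread.

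Macroautophagy encloses cytoplasm in a double membrane that grows from an isolation membrane, closes as an autophagosome and fuses with lysosomes, where the contents are digested. A kinase complex built around UNC-51 starts the process, a lipid kinase complex that contains BEC-1 marks the membrane, and ubiquitin-like Atg8 proteins (LGG-1 and LGG-2 in the worm) are attached to its lipids. Mitophagy is the selective removal of mitochondria by the same route. In the worm HLH-30 is the counterpart of mammalian TFEB, a transcription factor of autophagy and lysosome genes. Much of the pathway's activity is set at the level of proteins, which these RNA data do not measure.

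Control library 1 and tryptophan library 1 stood apart from the other 4 libraries, which correlated with each other at 0.960 to 0.980 across 13511 genes, against 0.578 between those 2. Estimated depth was 14.6 to 25.0 M (mega) counted units per library. Tryptophan library 1 also departed from the others by transcript length. Relative to the mean of libraries 2 and 3 of both groups on the log2(FPKM + 1) scale, its median protein-coding gene stood 1.55 higher for transcripts of up to 500 bp and lower by a deviation of -1.496 for those over 4000 bp. Control library 1 ran from -0.21 to 0.53 between the same length classes, control library 3 from 0.30 to -0.50, tryptophan library 2 from -0.19 to 0.48, and control library 2 and tryptophan library 3 stayed within -0.17 to 0.08. Germline markers, and the yolk genes that the adult intestine expresses, moved most with the same libraries. Summed FPKM of 19 oocyte genes was 3125 to 12901 in control and 1524 to 3405 in tryptophan animals, that of 6 yolk genes 945.7 to 19564 and 406.1 to 3951, and that of 35 sperm genes 515.8 to 8753 and 5768 to 22262, with control library 1 highest for yolk and oocyte and tryptophan library 1 highest for sperm. None of these 60 markers was at 0 in every library, and markers of intestine, muscle, neurons, hypodermis and pharynx were all detected. The part of germline and yolk gene content in the results was not tested, and in whole animals fewer cells of a type cannot be told apart from less RNA per cell.

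The transcripts lay between the 42.3 and the 98.2 percentile of all tested genes by mean level. FPKM (fragments per kilobase of transcript, scaled to library size) is meant to allow levels to be compared between genes. The longest transcripts of the members measure 708 to 2897 bp, so the trends over length described above limit this comparison. In control animals lgg-1 was the most abundant at 445.8 ± 62.1 FPKM (SD, n = 3), followed by lgg-2, atg-18, sqst-1, bec-1, atg-7, pink-1, unc-51, hlh-30 and dct-1, the last at 10.7 ± 4.14 FPKM. Only the step from lgg-1 to lgg-2 exceeded the larger SD of the neighbours. For the other 8 steps the neighbours' control means differed by less than that SD, although lgg-2 exceeded atg-18, and atg-7 exceeded pink-1, in 6 of 6 libraries. atg-18 exceeded sqst-1 in 1 of 6 libraries, control library 1, and unc-51 exceeded hlh-30 in 3 of 6, so their places in this order are not firm.

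**Figure D1:**
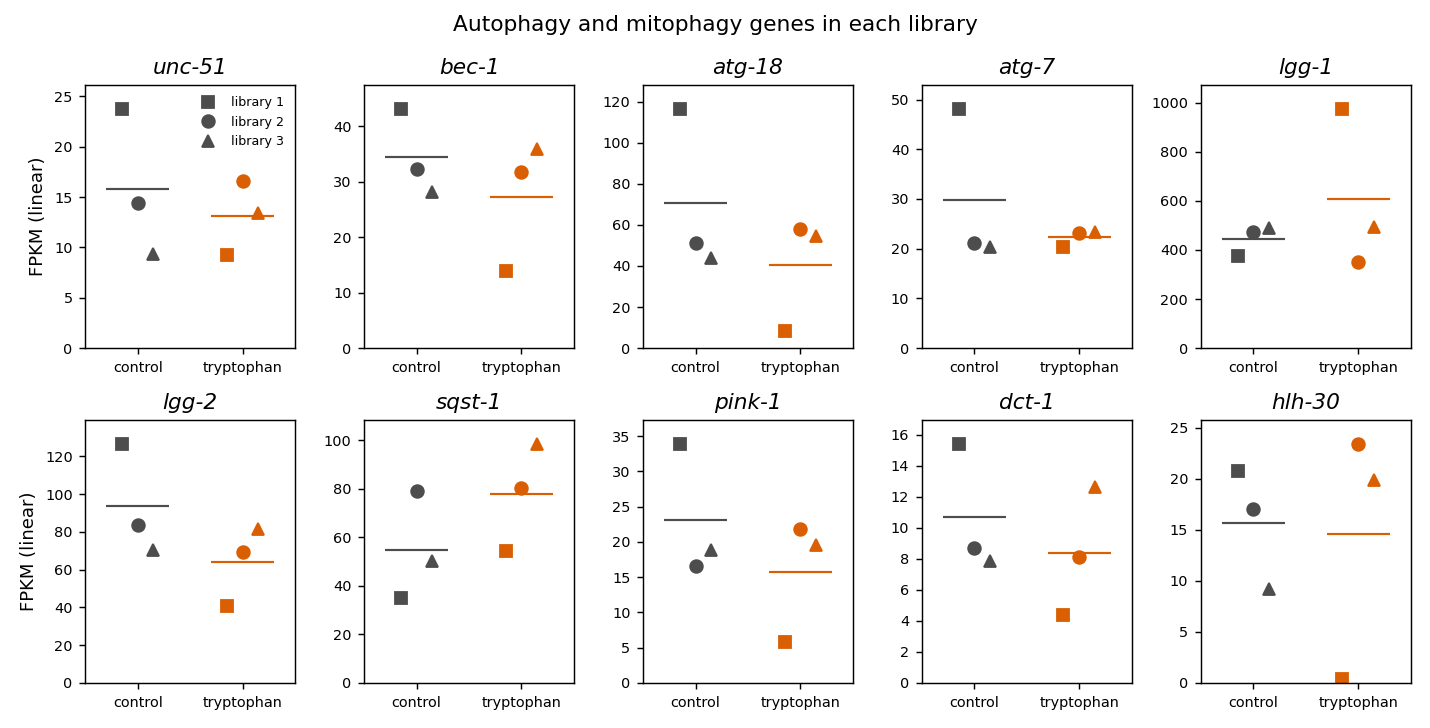
FPKM on linear axes that start at 0, one panel per gene, with the 3 control (grey) and 3 tryptophan (orange) libraries as points, marker shape giving the library number and horizontal lines the group means. Control library 1 is the highest point for 7 genes and tryptophan library 1 the lowest for 7, while over libraries 2 and 3 of both groups the highest value is 1.15 to 2.54 times the lowest, depending on the gene.

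Genes that start the autophagosome did not separate the groups. unc-51 (Y60A3A.1, chromosome V, 19995986 to 20004485), the ULK1-type kinase, stood at 23.8, 14.4 and 9.36 FPKM in control libraries 1 to 3 and at 9.29, 16.6 and 13.4 FPKM in tryptophan libraries 1 to 3. The groups overlapped over most of their range, and the log2 fold change was -0.20 (SE 0.48; 95% interval -1.33 to 0.93). It was 0.12 without control library 1 and 0.01 without tryptophan library 1, and hence had no stable sign.

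bec-1 (T19E7.3, chromosome IV, 5661141 to 5664425), the worm Beclin 1, had 43.1, 32.3 and 28.1 FPKM across the control libraries, against 13.99, 31.8 and 35.9 FPKM across the tryptophan libraries. Tryptophan library 1 was the low point and the other 5 libraries lay within 28.1 to 43.1 FPKM. atg-18 (F41E6.13, chromosome V, 8629174 to 8631327), a WIPI-type protein that binds phosphoinositides on the growing membrane, had 116.5, 51.3 and 43.9 FPKM across the control libraries, against 8.29, 57.9 and 54.7 FPKM across the tryptophan libraries. The high control value and the low tryptophan value were both from library 1, with a ratio of 14.1 between them, whereas the other 4 libraries spanned a ratio of 1.32. The log2 fold changes were -0.41 (SE 0.47) for bec-1 and -1.06 (SE 0.79; 95% interval -2.91 to 0.80) for atg-18, and without tryptophan library 1 they were -0.01 and -0.18.

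Among the conjugation genes the Atg8 pair ran in opposite directions in tryptophan library 1. lgg-1 (C32D5.9, chromosome II, 6346960 to 6347719), the GABARAP-type Atg8, stood at 374.5, 474.8 and 488.1 FPKM across the control libraries and at 975.0, 350.3 and 493.0 FPKM across the tryptophan libraries. The other 5 libraries spanned 350.3 to 493.0 FPKM, and the value of 975.0 FPKM stood alone. lgg-2 (ZK593.6, chromosome IV, 10934196 to 10935903), the LC3-type Atg8, stood at 126.7, 83.5 and 70.3 FPKM across the control libraries and at 40.6, 69.2 and 81.5 FPKM across the tryptophan libraries. Here tryptophan library 1 was lowest and control library 1 highest.

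The ratio of lgg-1 to lgg-2 was therefore 24.0 in tryptophan library 1 and 2.96 in control library 1. In control libraries 2 and 3 it was 5.69 and 6.95, and in tryptophan libraries 2 and 3 it was 5.06 and 6.05, so those 4 overlapped. The log2 fold change was 0.32 (SE 0.45; 95% interval -0.73 to 1.36) for lgg-1 and -0.56 (SE 0.43; 95% interval -1.56 to 0.45) for lgg-2. Without tryptophan library 1 that of lgg-1 was -0.09 and that of lgg-2 -0.27, and without control library 1 that of lgg-2 was -0.32. The lgg-1 transcript is the shortest of the 10 at 708 bp. In tryptophan library 1 it deviated by 1.12 from the mean of the 4 central libraries, beside a median of 0.92 over 1993 coding genes of like length (0.8 to 1.25 times as long), of which 59.4% lay below it. lgg-2, at 1039 bp, deviated by -0.88 where the median gene of like length stood at 0.40, and 9.93% of those genes lay below it.

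atg-7 (M7.5, chromosome IV, 11078682 to 11081055), the E1-type enzyme that activates Atg8 proteins, was the steadiest outside control library 1. It had 48.1, 21.1 and 20.2 FPKM across the control libraries, against 20.4, 23.1 and 23.3 FPKM across the tryptophan libraries. All but control library 1 lay within 20.2 to 23.3 FPKM. Its log2 fold change was -0.29 (SE 0.45; 95% interval -1.36 to 0.77), and 0.10 without control library 1.

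sqst-1 (T12G3.1, chromosome IV, 12034282 to 12036891), the worm p62 receptor that links ubiquitinated cargo to Atg8 proteins, had a positive difference both over all libraries and in libraries 2 and 3. It had 34.9, 79.03 and 50.2 FPKM across the control libraries, against 54.4, 80.5 and 98.6 FPKM across the tryptophan libraries. The 2 highest libraries were from tryptophan and the 2 lowest from control animals, but the groups overlapped between 54.4 and 79.03 FPKM. The log2 fold change was 0.54 (SE 0.45; 95% interval -0.51 to 1.58) over 6 libraries and 0.49 (SE 0.26; 95% interval -0.10 to 1.09) in libraries 2 and 3. Neither passed the threshold (limma adjusted p = 0.802 and 0.432). Leaving out each library in turn gave 0.26 to 0.84.

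The mitophagy genes differed mainly between the libraries numbered 1. pink-1 (EEED8.9, chromosome II, 5393293 to 5395694), a kinase that marks damaged mitochondria, had 33.95, 16.5 and 18.9 FPKM across the control libraries, against 5.82, 21.8 and 19.5 FPKM across the tryptophan libraries. Control library 1 was highest and tryptophan library 1 lowest, and libraries 2 and 3 of the tryptophan group lay just above those of the control group. dct-1 (C14F5.1, chromosome X, 7954354 to 7956225), a BNIP3-type receptor on the outer mitochondrial membrane, had 15.4, 8.70 and 7.88 FPKM across the control libraries, against 4.40, 8.12 and 12.6 FPKM across the tryptophan libraries. It overlapped between groups and showed the same extremes. The log2 fold changes were -0.65 (SE 0.59; 95% interval -2.03 to 0.73) for pink-1 and -0.36 (SE 0.51; 95% interval -1.55 to 0.84) for dct-1, and without tryptophan library 1 they were -0.09 and -0.01. An exon of dct-1 overlaps an exon of sfxn-2 on the other strand, and without strand information reads from that stretch cannot be assigned. No exon of the other 9 genes overlaps an exon of another annotated gene.

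hlh-30 (W02C12.3, chromosome IV, 4014793 to 4034951) was the most variable of the 10 genes. It had 20.7, 17.03 and 9.23 FPKM across the control libraries, against 0.394, 23.4 and 19.9 FPKM across the tryptophan libraries. Tryptophan library 1 was far below the rest, while the other tryptophan libraries held the highest and the third highest values. The low value corresponds to an estimated 17.7 counted units on the longest annotated transcript (2583 bp), against 472.9 to 1282 in the other libraries, so it is low but above 0. Its deviation from the central libraries was -3.65, where the median coding gene of like length deviated by -0.94 and 2.30% of 1915 such genes lay lower. The residual SD of hlh-30 was 1.69 on the log2 scale, at the 96.1 percentile of tested genes. Over 6 libraries its log2 fold change was -0.83 (SE 1.08; 95% interval -3.37 to 1.70), and without tryptophan library 1 it was 0.51. In libraries 2 and 3 it was 0.73 (SE 0.29; 95% interval 0.06 to 1.41; unadjusted p = 0.0365, limma adjusted p = 0.325), the only member with an unadjusted p under 0.05 there, as had 14% of all tested genes.

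**Figure D2:**
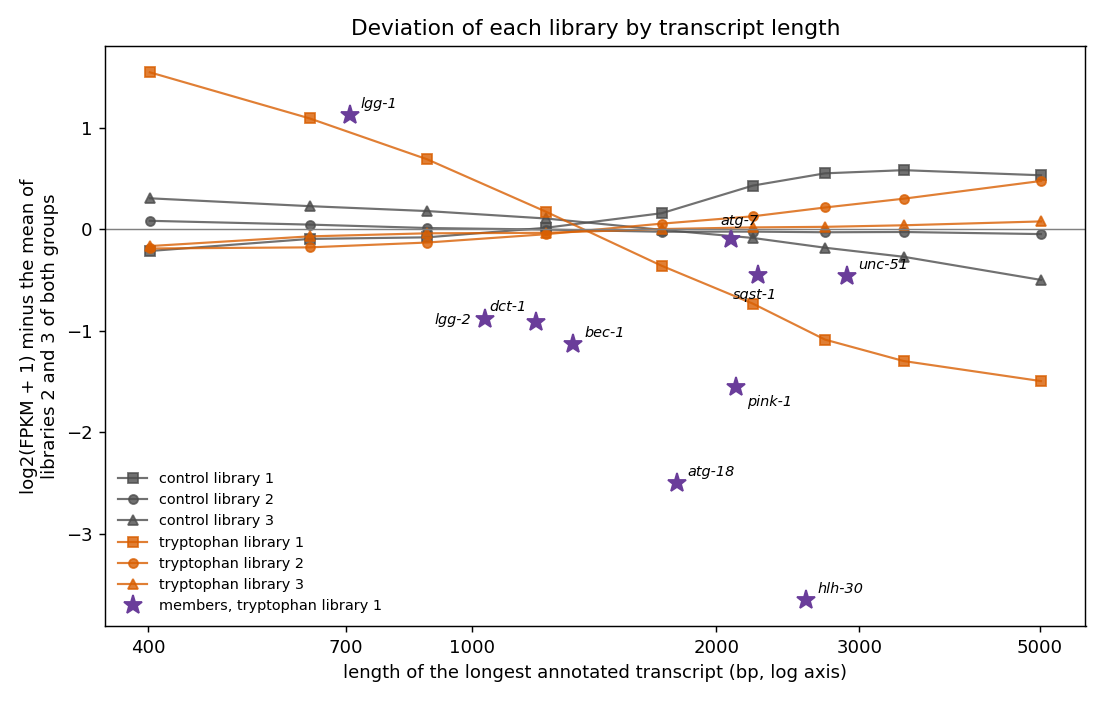
Median deviation of protein-coding genes in each library from the mean of libraries 2 and 3 of both groups (log2(FPKM + 1), vertical axis) by length of the longest annotated transcript (bp, log axis), with the 10 genes in tryptophan library 1 as stars. The line of tryptophan library 1 runs from 1.55 to -1.496, lgg-1 lies close to it, and hlh-30 and atg-18 lie well below it.

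The members were set beside genes of like length. In tryptophan library 1 the members' deviations were 1.12 for lgg-1 and negative for the other 9 genes, whose longest transcripts measure 1039 to 2897 bp. sqst-1, unc-51 and atg-7 deviated by -0.46, -0.46 and -0.10, beside medians of -0.75, -1.11 and -0.62 for genes of like length, and so stood above those medians. lgg-2, bec-1, atg-18, pink-1, dct-1 and hlh-30 stood below theirs, with 2.30% to 19.7% of genes of like length lower. An alternative, chosen after the data were seen, removed each library's trend over length. With it the residual SD of lgg-1 went from 0.55 to 0.17 and that of hlh-30 from 1.69 to 1.21. The residual SD also fell for atg-18, unc-51, atg-7 and pink-1. It rose for lgg-2 (0.48 to 0.68), dct-1 (0.58 to 0.69), bec-1 (0.54 to 0.57) and sqst-1 (0.51 to 0.53). The log2 fold change of lgg-1 was then 0.10 (95% interval -0.55 to 0.74), that of sqst-1 0.79 (-0.20 to 1.77), and that of unc-51 turned to 0.12.

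Taking the comparison over all genes, 0 of the 10 members passed the threshold of an adjusted p of 0.05 (limma, Benjamini-Hochberg over 13511 genes), as did 0% of the genes tested, and 0 had an unadjusted p under 0.05, as had 158 genes (1.17%). Adjusted p-values of the members ran from 0.802 to 0.906. Of the 10, 8 were lower and 2 higher in mean log2 level with tryptophan, beside 52.3% lower among all tested genes, and the median was -0.39, beside -0.03. The median was -0.16 without control library 1, -0.05 without tryptophan library 1 and -0.67 without tryptophan library 3. In 0 members did the groups not overlap, against 8.3% of all genes. Control library 1 was highest in 7 members (37.1% of all genes), tryptophan library 1 lowest in 7 (34.5%), and both held in 6 (24%). The interval of each of the 10 members reached past 1 or -1 on the log2 scale, so in that direction a difference of that size could not be told from none. It reached past both only for hlh-30 (-3.37 to 1.70), past 1 alone for lgg-1 and sqst-1, and past -1 alone for the others.

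In libraries 2 and 3 of each group, where the median residual SD over all genes was 0.20 against 0.64 in all 6, 0 members passed (limma adjusted p from 0.325 to 0.965), against 68 of all genes (0.503%). There 8 members were higher and 2 lower in mean log2 level with tryptophan, beside 47.3% higher among all genes, and the median was 0.23, beside -0.02. The sign differed from that over 6 libraries in 8 members, all but sqst-1 and lgg-2, as it did in 47.7% of all genes. Both tryptophan libraries exceeded both control libraries for atg-18, sqst-1, hlh-30, atg-7 and pink-1 (5 of 10, beside 21.4% of all genes) and lay below both for 0 (25%). The intervals were narrower, for example -0.28 to 0.60 for atg-7, -0.50 to 0.44 for lgg-2 and -0.75 to 0.33 for lgg-1. The libraries left out are those that stood apart, so the smaller spread follows in part from that choice, and these intervals can be too narrow. Yolk and sperm genes also differed between the groups in this subset. With the length trend removed as well, all 10 members were positive, beside 6779 of 13388 genes, and the median was 0.15, beside 0.0044. The smallest differences were 0.0092 (SE 0.21) for lgg-1 and 0.045 (SE 0.17) for atg-7. Only the interval of hlh-30 excluded 0, with a log2 fold change of 0.53 (95% interval 0.02 to 1.04, limma adjusted p = 0.432).

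**Figure D3:**
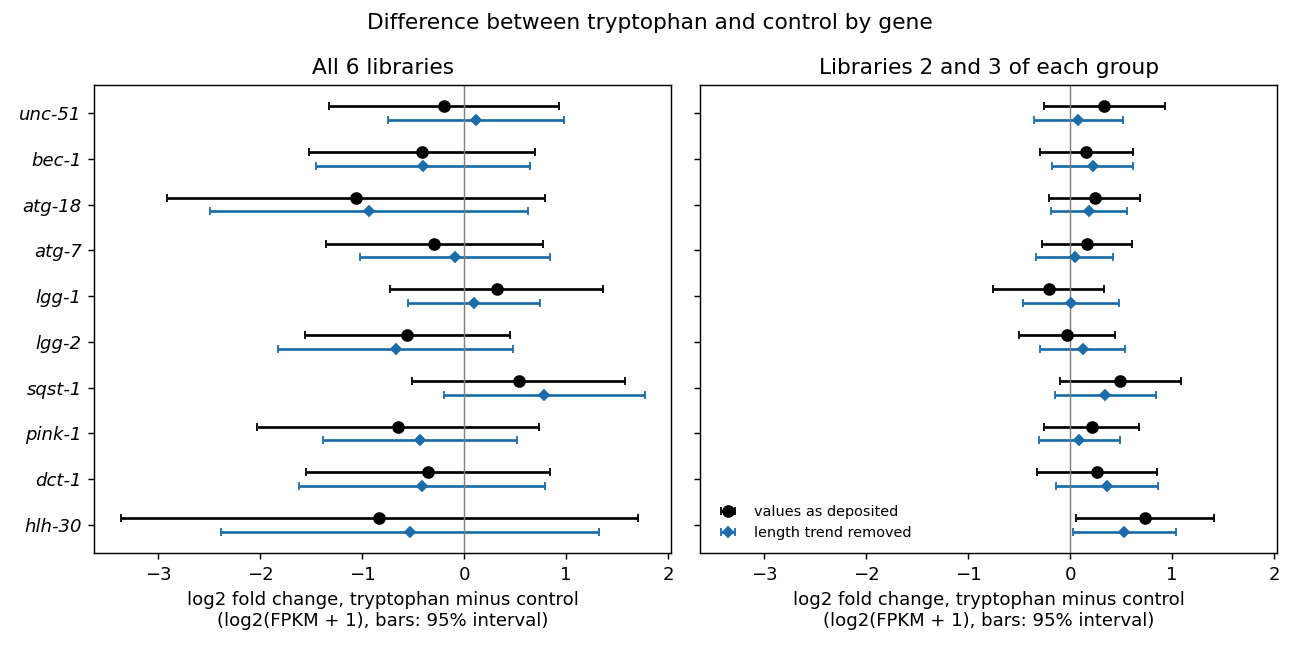
Log2 fold change (tryptophan minus control on the log2(FPKM + 1) scale) of each gene with its 95% interval from limma, over all 6 libraries (left) and in libraries 2 and 3 of each group (right), with values as deposited (circles) and with the length trend removed (diamonds). Every interval on the left includes 0, and on the right only those of hlh-30 lie above it.

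Other genes of the pathway were taken in 7 lists chosen by function. Of 121 listed genes 120 were tested. The exception was sepa-1, a cargo receptor of embryos, whose mean was below 1 FPKM. It had 5.45 FPKM in control library 1 and 0.022 to 0.129 FPKM in the other libraries. None of the 120 passed over all genes (limma, 0 of 120). Over 6 libraries 27 log2 fold changes were positive and 93 negative, and within libraries 2 and 3 these counts were 82 and 38. The groups did not overlap for 8 of the 120, beside 8.3% of all genes.

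In the list of other initiation and nucleation genes 10 of 11 were negative over 6 libraries (median -0.34) and 10 of 11 positive in libraries 2 and 3 (median 0.33). The 6-library median became -0.16 without control library 1, -0.54 without control library 3, and -0.081, -0.70 and -0.59 without tryptophan libraries 1, 2 and 3 in turn. Control library 1 was highest for 10 of them and tryptophan library 1 lowest for 10, and their median transcript is 2802 bp long. epg-3, a membrane protein needed for autophagosome formation, had 92.4, 38.4 and 29.5 FPKM across the control libraries, against 1.66, 51.003 and 31.3 FPKM across the tryptophan libraries. atg-2, a lipid transfer protein, had 5.17, 5.56 and 2.84 FPKM across the control libraries, against 0.914, 10.2 and 7.04 FPKM across the tryptophan libraries. As for hlh-30, tryptophan library 1 was the lowest and tryptophan library 2 the highest of the 6.

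All 8 other conjugation genes were negative over 6 libraries (median -0.28) and 4 of 8 in libraries 2 and 3 (median 0.01). Without control library 1, 3 of 8 were positive and the median was -0.048, and without control library 2 it was -0.46. For atg-5, whose product forms part of the Atg8 ligase, and atg-3, the E2-type enzyme, the groups did not overlap (2 of 8, beside 8.3% of all genes). atg-5 had 53.5, 26.3 and 28.4 FPKM across the control libraries, against 15.4, 25.2 and 23.05 FPKM across the tryptophan libraries (log2 fold change -0.69, SE 0.44), and atg-3 had 82.7, 40.2 and 39.9 against 38.5, 33.4 and 30.7 FPKM (-0.57, SE 0.42). Their limma adjusted p was 0.802 for both, and in libraries 2 and 3 the differences were -0.17 (SE 0.19) and -0.32 (SE 0.19). Among 7 tested genes of cargo recognition and fusion 6 were negative over 6 libraries (median -0.36) and 4 positive in libraries 2 and 3 (median 0.19). Without control library 1, 4 of 7 were positive and the median was 0.0029, and without control library 3 it was -0.56. One of the negative genes was allo-1, an adaptor that directs paternal mitochondria to autophagosomes. It stood at 91.8 ± 41.1 FPKM across the control libraries, against 53.1 ± 1.01 FPKM across the tryptophan libraries (SD, n = 3 each). Control library 1 held 139.0 FPKM, and control libraries 2 and 3 held 64.7 and 71.5. Its groups did not overlap (1 of 7, beside 8.3% of all genes). Its log2 fold change was -0.69 (SE 0.41, limma adjusted p = 0.802), and -0.35 (SE 0.19) in libraries 2 and 3.

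Of 18 genes of mitochondrial quality control and dynamics 12 were negative over 6 libraries (median -0.34) and 11 in libraries 2 and 3 (median -0.05). Without control library 1 the median was -0.12. pdr-1, the worm Parkin that acts with PINK-1, stood at 68.0, 31.3 and 37.3 FPKM across the control libraries and at 57.6, 30.95 and 22.8 FPKM across the tryptophan libraries, with a log2 fold change of -0.31 (SE 0.50) over 6 libraries and -0.35 (SE 0.22) in libraries 2 and 3. fis-1, a fission gene, had 0.244, 14.7 and 17.8 FPKM across the control libraries, against 51.8, 9.86 and 12.6 FPKM across the tryptophan libraries. Its log2 fold change was 1.47 (SE 1.13) over 6 libraries and -0.50 (SE 0.22) in libraries 2 and 3, so the direction turned when the libraries numbered 1 were left out.

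Lysosomal genes were divided, with 13 of 28 positive over 6 libraries (median -0.08) and 21 of 28 in libraries 2 and 3 (median 0.23). The former median was 0.02 with rescaling to TPM, 0.03 without control library 1, 0.15 without tryptophan library 1, -0.17 without tryptophan library 2, -0.13 without tryptophan library 3 and 0.14 with the length trend removed. asm-3, an acid sphingomyelinase, had 1.44, 6.68 and 8.96 FPKM across the control libraries, against 15.2, 16.6 and 14.8 FPKM across the tryptophan libraries. gba-2, of the glucocerebrosidase type and near the filter of 1 FPKM, had 0.256, 0.471 and 1.17 FPKM across the control libraries, against 1.33, 2.87 and 1.82 FPKM across the tryptophan libraries. For both, the lowest tryptophan value exceeded the highest control value, with log2 fold changes of 1.53 (SE 0.59) and 0.89 (SE 0.36), unadjusted p of 0.0346 and 0.0430, and limma adjusted p of 0.802 for each. These are 2 of 28 lysosomal genes without overlap, beside 8.3% of all genes, and with a replicate block or with rescaling to TPM 0 of the 28 had an unadjusted p under 0.05. The negative genes of the list with the smallest p were laat-1 and vps-39, at -0.77 (SE 0.52) and -0.90 (SE 0.69) over 6 libraries. In libraries 2 and 3 they stood at -0.03 (SE 0.23) and 0.22 (SE 0.25). Of 21 subunit genes of the V-ATPase, the pump that acidifies lysosomes, 18 were negative over 6 libraries (median -0.36) and 18 positive in libraries 2 and 3 (median 0.15). Without tryptophan library 1 alone, 11 of 21 were positive and the median was 0.0018, and without control library 1, tryptophan library 2 or tryptophan library 3 it was -0.22, -0.66 and -0.56.

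Among 27 genes of nutrient signalling and HLH-30 partners 24 were negative over 6 libraries (median -0.37) and 18 positive in libraries 2 and 3 (median 0.14). Without tryptophan library 1, 12 of 27 were positive and the median was -0.066. let-363, the TOR kinase that restrains autophagy, had log2 fold changes of -0.15 (SE 0.59) and 0.65 (SE 0.26) in these comparisons, daf-15, its Raptor partner, -0.29 (SE 0.64) and 0.63 (SE 0.27), and aak-2, a catalytic subunit of AMP-activated kinase, -0.30 (SE 0.47) and 0.25 (SE 0.20). rsks-1, the S6 kinase, resembled hlh-30 in tryptophan library 1, at 1.57 FPKM against 41.2 to 116.8 FPKM in the other 5 libraries, with log2 fold changes of -1.66 (SE 1.22) and 0.27 (SE 0.26). mxl-3, which opposes HLH-30 at shared targets, had 44.8, 77.1 and 60.4 FPKM across the control libraries, against 57.6, 42.3 and 51.6 FPKM across the tryptophan libraries, and overlapped between groups (log2 fold change -0.24, SE 0.38). In libraries 2 and 3 both tryptophan values lay below both control values, as for 25% of all genes, with -0.54 (SE 0.22; limma adjusted p = 0.327). mml-1, a Mondo-type factor linked to HLH-30, had 16.7, 12.4 and 6.33 FPKM across the control libraries, against 2.44, 18.3 and 23.3 FPKM across the tryptophan libraries, with a log2 fold change of -0.04 (SE 0.80) over 6 libraries and 1.13 (SE 0.31; limma adjusted p = 0.211) in libraries 2 and 3. mxl-2 was negative in both comparisons, and its groups overlapped. Its log2 fold change was -0.94 (SE 0.49; limma adjusted p = 0.802) over 6 libraries. In libraries 2 and 3 it was -0.37 (SE 0.25; limma adjusted p = 0.523), opposite in sign to that of mml-1.

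**Figure D4:**
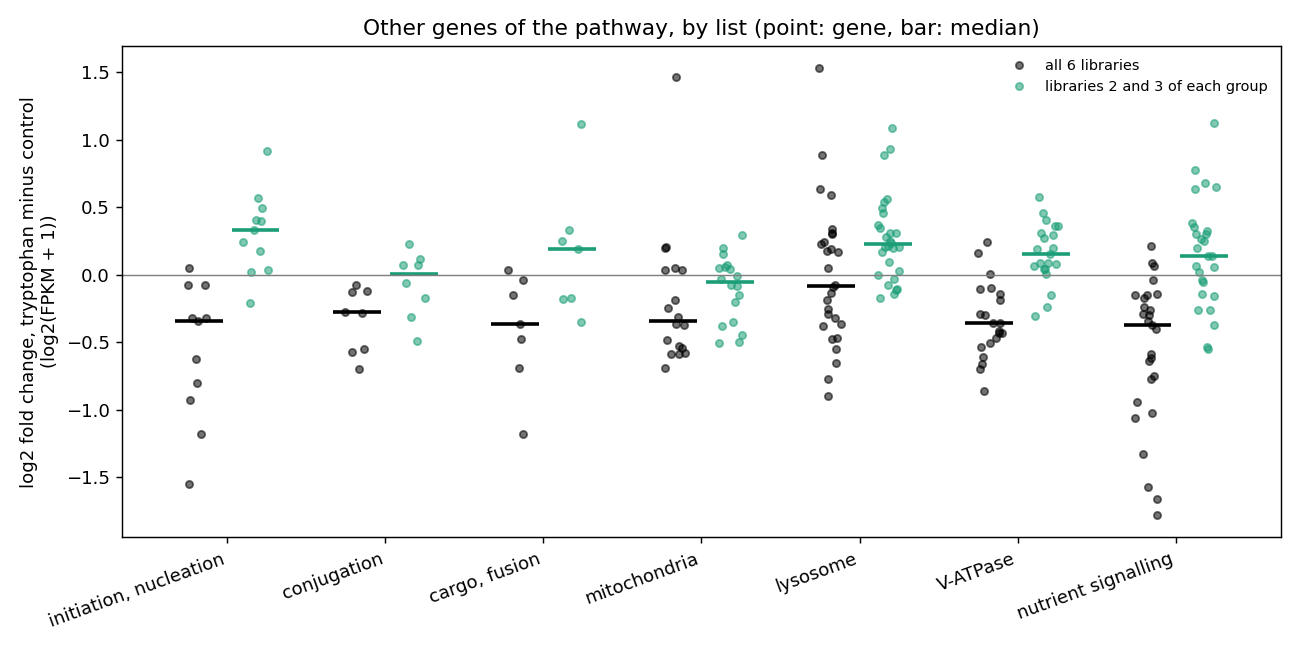
Log2 fold change (tryptophan minus control, log2(FPKM + 1)) of each tested gene in the 7 lists, over all 6 libraries (black) and in libraries 2 and 3 of each group (green), with list medians as bars. The medians over 6 libraries lie between -0.37 and -0.08, and those of libraries 2 and 3 between -0.05 and 0.33.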

How the data were processed

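The authors deposited 1 table of FPKM values per library, per the file headers. A TruSeq kit was used on total RNA, per the labels' protocols. Bowtie 0.12.2, StringTie and the build WBcel235 are named in the submitters' processing notes. The release of the annotation, any filters and the strand setting were not given in the sources used here. Sequence names were matched to the WBcel235 annotation (Ensembl release 115, 46180 of 46589 matched), which gives the 1-based coordinates.

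Values were analysed as log2(FPKM + 1), which understates changes of low genes. Genes whose FPKM averaged 1 or more (13511 genes, all 10 members included) were fitted in limma 3.58.1 (R 4.3.3) on group, with eBayes and trend, two-sided, and Benjamini-Hochberg adjustment over all genes tested. With 3 libraries a group, exact permutation gives no p under 0.10, so it was left out. Intervals are limma's moderated 95% intervals.

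Depth was estimated from the step of FPKM times length in genes with 1 transcript, where 68.2% to 72.0% of low values lay within 0.2 steps of a whole number, so counts were not rebuilt. The length alternative subtracts a lowess curve (span 0.3) over log2 transcript length from each library's deviations (13388 genes). Both fits were run on simulated data with less spread than the median gene over 6 libraries and larger changes than those of the members. This checked the code, not the power for these libraries. Tables and plots used pandas 2.3.3, matplotlib 3.10.9 and numpy 2.4.6 under Python 3.11.15.

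The members and lists were chosen with earlier results of these data known. All 10 members are named. From each list up to 2 genes in each direction with the smallest p could be named, plus pdr-1, let-363, daf-15, aak-2, rsks-1, mxl-3, mml-1 and mxl-2 for their role. Of 19 alternatives 17 were planned and 2, on transcript length, were added after the data were seen.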

Additional observations from a re-analysis of the deposited data

How the results depend on the processing

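The count of members past the threshold was 0 in all 19 alternatives. The count over all genes was 0 except in libraries 2 and 3 only (68) and there with the length trend removed (123), where the members' median log2 fold change moved from -0.39 to 0.23 and 0.15. Directions that differed from those over 6 libraries were those in libraries 2 and 3, without and with removal of the length trend, of atg-18 (0.24 and 0.18), atg-7 (0.16 and 0.045), bec-1 (0.16 and 0.22), dct-1 (0.26 and 0.36), hlh-30 (0.73 and 0.53), pink-1 (0.21 and 0.089) and unc-51 (0.33 and 0.078). lgg-1 differed before removal (-0.21) and lgg-2 after it (0.12). unc-51 also differed over 6 libraries with the length trend removed (0.12). The causes were not tested. Leaving out each library in turn gave ranges of -0.50 to 0.10 for atg-7, -1.56 to 0.51 for hlh-30, -0.091 to 0.65 for lgg-1, -0.51 to 0.12 for unc-51, -0.76 to -0.27 for lgg-2, -0.66 to -0.0081 for bec-1, -1.52 to -0.18 for atg-18, -0.96 to -0.091 for pink-1 and -0.68 to -0.011 for dct-1. Other pseudocounts, filters, scalings and eBayes settings turned no member's direction. They moved some sizes by over 1.5 times. With quantile normalization the members' median was -0.25, lgg-2 -0.37, bec-1 -0.18, atg-7 -0.070 and unc-51 -0.067, with rescaling to TPM atg-7 was -0.18 and unc-51 -0.088, and with a pseudocount of 0.1 hlh-30 was -1.28. Quantile normalization also moved the list medians to -0.13 (cargo and fusion), -0.17 (mitochondrial), -0.16 (V-ATPase) and -0.031 (lysosome). A filter at a mean FPKM of 5 moved them to -0.55 (conjugation, 5 genes left) and -0.19 (lysosome, 22 genes left). With rescaling to TPM they were -0.17 (conjugation) and -0.23 (initiation and nucleation). Rescaling to TPM moved the median log2 fold change of all genes from -0.03 to 0.08. Libraries with the same replicate number did not deviate together (correlations of -0.37, -0.30 and -0.34), and the numbers were not taken as pairs. These deviations are from group means, sum to 0 within a group and include the libraries numbered 1 that stood apart. The correlations therefore cannot settle whether libraries were paired. With a replicate block 0 genes and 0 members passed and the members' median log2 fold change was -0.39. The value of hlh-30 in tryptophan library 1 rests on an estimated 17.7 counted units, in a library of estimated depth 17.4 M.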
